A study of Arabidopsis thaliana with 12 samples.

Results

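The 10 genes described here carry nitrate from the soil into organic nitrogen in Arabidopsis thaliana: the transporters NRT1.1 (AT1G12110), NRT2.1 (AT1G08090) and NRT2.2 (AT1G08100), the transporter partner NRT3.1 (AT5G50200), the nitrate reductases NIA1 (AT1G77760) and NIA2 (AT1G37130), the nitrite reductase NIR1 (AT2G15620), the glutamine synthetases GLN1;1 (AT5G37600) and GLN2 (AT5G35630) and the glutamate synthase GLU1 (AT5G04140). They were chosen by their known roles in the pathway, at a time when earlier results of these data had been seen. They were found by locus identifier among the 33602 loci of the RNA-seq tables. All 10 were present, and 9 passed the filter on low counts that left 20783 loci for testing; NRT2.2 did not. The libraries came from whole seedlings aged 10 days, grown in a greenhouse in long days. There were 4 groups of 3 libraries: Col-0 as wild type and plants of the atrx-2 allele, both raised either under normal light (130 µmol) or under low light (30 µmol). ATRX is a chromatin remodeller that helps to load histone H3.3 into chromatin, and in the title of the series it interacts with LHP1 at Polycomb targets. The 3 libraries of a group are numbered, but nothing states whether they were separate cultures, so the p-values reflect the spread of these libraries alone, which could be technical.

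Plants take up nitrate through low-affinity and high-affinity transporters in the root. The high-affinity NRT2 proteins work as a complex with NRT3.1, and NRT1.1 also acts as a nitrate sensor. Nitrate is reduced to nitrite in the cytosol by nitrate reductase and to ammonium in plastids by nitrite reductase, which draws electrons from ferredoxin. Ammonium then enters glutamine through glutamine synthetase and glutamate through glutamate synthase. In green leaves the plastid enzymes GLN2 and GLU1 also recover the ammonium released by photorespiration, whereas GLN1;1 is a cytosolic enzyme. Nitrate and light are both known to regulate many of these genes.

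NRT2.1 and NRT2.2 are neighbours on chromosome 1 of TAIR10.1, where they face each other with 847 bases between them. NRT2.1 spans 2524023 to 2526322 on the forward strand with 3 exons, and NRT2.2 spans 2527170 to 2529120 on the reverse strand with 3 exons. Their coding sequences were identical at 89.4% of 1569 aligned bases, with a longest identical run of 170 bases. The 250 bases before each gene start are printed because one gene of the pair was counted and the other was listed at 0 throughout. Capitals mark exact runs of at least 10 bases that both windows hold. The first window is chr1:2523773-2524022 on the forward strand and the second is chr1:2529121-2529370 on the reverse strand, both read from the TAIR10.1 genome.
NRT2.1: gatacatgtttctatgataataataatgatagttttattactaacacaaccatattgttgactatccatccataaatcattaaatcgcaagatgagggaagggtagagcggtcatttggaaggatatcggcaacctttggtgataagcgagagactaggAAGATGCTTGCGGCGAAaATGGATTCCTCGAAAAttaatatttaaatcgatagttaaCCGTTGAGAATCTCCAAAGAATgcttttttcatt
NRT2.2: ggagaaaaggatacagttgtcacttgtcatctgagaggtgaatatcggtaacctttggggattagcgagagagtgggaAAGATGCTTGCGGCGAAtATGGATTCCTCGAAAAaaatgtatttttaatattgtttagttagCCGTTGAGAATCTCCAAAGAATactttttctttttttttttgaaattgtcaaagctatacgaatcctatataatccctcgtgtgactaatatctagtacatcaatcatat
There were 3 such runs, covering 55 bases of each window, and the longest was 22 bases. The remaining bases of the windows did not share a run of that length. The motif GATAAG, the I-box of many light-regulated promoters, was searched on both strands in the 250 bases before each gene start. It was present in 1 of 10 windows, in lower case above at bases -109 to -104 of the NRT2.1 window, and in 12.3% of 27443 windows of coding genes. The G-box CACGTG was in 0 of the 10 windows and in 6.49% of all windows. The half-sites of the nitrate-responsive element, CTT followed after 10 bases by AAG, were in 0 of the 10 and in 8.02% of all windows. The single match overlapped no other, and a missing match says only that those letters are not in these windows.

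The nitrate reductase pair is less alike. NIA1 lies on chromosome 1 from 29235721 to 29239484 (reverse strand, 4 exons) and NIA2 on chromosome 1 from 14158452 to 14161938 (forward strand, 3 exons). Their coding sequences were identical at 74.1% of 2721 aligned bases. The most alike stretch of 50 bases, the read length, is printed to show how far reads of the 2 genes can be told apart; capitals mark the bases that differ. It covers coding bases 1051 to 1100 of NIA1 and 1042 to 1091 of NIA2.
NIA1: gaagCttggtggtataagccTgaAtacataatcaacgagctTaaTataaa
NIA2: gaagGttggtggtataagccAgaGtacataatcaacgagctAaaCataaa
Of these 50 bases 45 were identical, and the longest identical run in the coding alignment was 20 bases. No stretch of 50 or of 31 bases of either gene occurred in another annotated transcript. For NRT2.1, by contrast, 174 windows of 50 bases (8.44% of its transcript) also occurred in NRT2.2, where they made up 10.5%. Of the 31-base words, 14.7% of those of NRT2.1 and 18.2% of those of NRT2.2 were shared by the pair. The separate values of the 2 genes are uncertain to that extent. For GLN1;1 no window of 50 bases was shared, but 1.93% of its 31-base words were, mostly with GLN1;2. The other genes shared none. They are NRT1.1 (chromosome 1, 4105223 to 4109601, 5 exons), NRT3.1 (chromosome 5, 20436180 to 20437815, 3 exons), NIR1 (chromosome 2, 6810395 to 6812941, 4 exons), GLN2 (chromosome 5, 13830429 to 13833542, 11 exons) and GLU1 (chromosome 5, 1129785 to 1138488, 32 exons), besides the NIA genes above; GLN1;1 lies on chromosome 5 from 14933286 to 14935885 with 9 exons.

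Library totals lay between 13733302 and 23899191 estimated counts. The 18S ribosomal RNA locus held 3.70% to 8.64% of the counts of normal-light libraries and 9.77% to 16.7% of low-light ones, with the highest share in the wild-type low-light replicate 3, which was also the shallowest library. ATRX, the mutated gene, stood at 35.1 to 45.5 CPM (counts scaled to a common library size with TMM factors) in wild type and 0.40 to 1.02 CPM in atrx-2, which matches the genotype labels in all 12 libraries. All 20 root markers and all 15 shoot markers were above 0 in every library. The root markers summed to 2303 to 2405 CPM (wild type) and 1906 to 2322 CPM (atrx-2) at normal light, and to 1909 to 2633 CPM and 2190 to 2576 CPM at low light. By group means, most of each sum came from a single marker, PYK10, so the sums say little about the other root markers. Root and shoot were sequenced together, so a change in the share of an organ and a change in RNA per cell cannot be told apart.

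Levels of the 10 genes covered more than 3 orders of magnitude. Per kilobase of effective length, wild type under normal light had the order GLN2 (1045 CPM per kb), NIA2 (405), GLU1 (270), NIR1 (147), NIA1 (101), NRT1.1 (92.4), GLN1;1 (55.2), NRT3.1 (11.4), NRT2.1 (0.29) and NRT2.2 (0). In that group NIA1 and NRT1.1 were the only neighbours whose libraries overlapped. Under low light NIA1 moved above NIR1, at 162 against 144 CPM per kb in wild type, where the libraries overlapped, and at 176 against 129 in atrx-2, where they did not. GLN2, NIA2 and GLU1 stood at the top and the high-affinity transport genes at the bottom in all 4 groups.

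**Figure D1:**
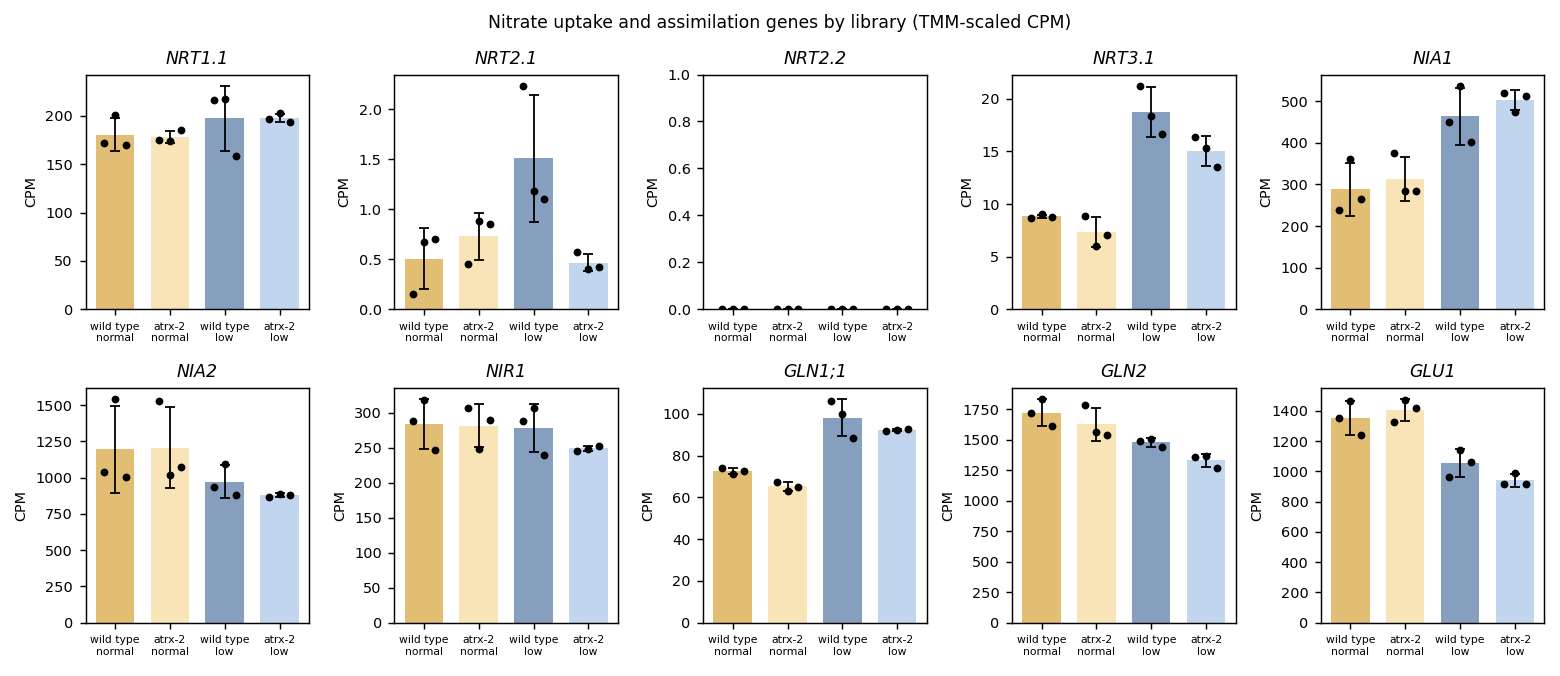
Each panel shows 1 gene: points are the 3 libraries of a group, bars the group mean and error bars the SD, all in CPM on axes that start at 0. NRT3.1, NIA1 and GLN1;1 are higher under low light in both genotypes, GLN2 and GLU1 are lower, and NRT2.2 is listed at 0 in all 12 libraries.

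Low against normal light in wild type asks how the pathway responds to less light. Transcripts of NRT3.1, NIA1 and cytosolic GLN1;1 were higher under low light, and those of the plastid enzymes GLN2 and GLU1 were lower. NRT2.1 was also higher, but on only 3 to 40 counts per wild-type library, and NRT2.2 was at 0. In all, 4 of the 9 tested genes rose (NRT2.1, NRT3.1, NIA1 and GLN1;1), 2 fell (GLN2 and GLU1) and 3 were not called (NRT1.1, NIA2 and NIR1), by edgeR's quasi-likelihood test at an adjusted p under 0.05. Of all 20783 tested genes 34.2% were called, 16.6% higher and 17.6% lower. The median log2 fold change was 0.13 over the 9 genes and 0.00 over all genes. In atrx-2 the same comparison gave 3 higher (NRT3.1, NIA1 and GLN1;1), 3 lower (NIA2, GLN2 and GLU1) and 3 not called (NRT1.1, NRT2.1 and NIR1), where 33.1% of all genes were called, 16.1% higher and 16.9% lower. There the medians were -0.18 and 0.01. The calls for 5 genes thus had the same direction in both genotypes, and for no gene were they opposite. How many of all tested genes were called alike in both genotypes was not counted, so this is not a trait particular to these genes. The low-light libraries also had the higher 18S shares given above, and the part of that shift in these results was not tested.

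**Figure D2:**
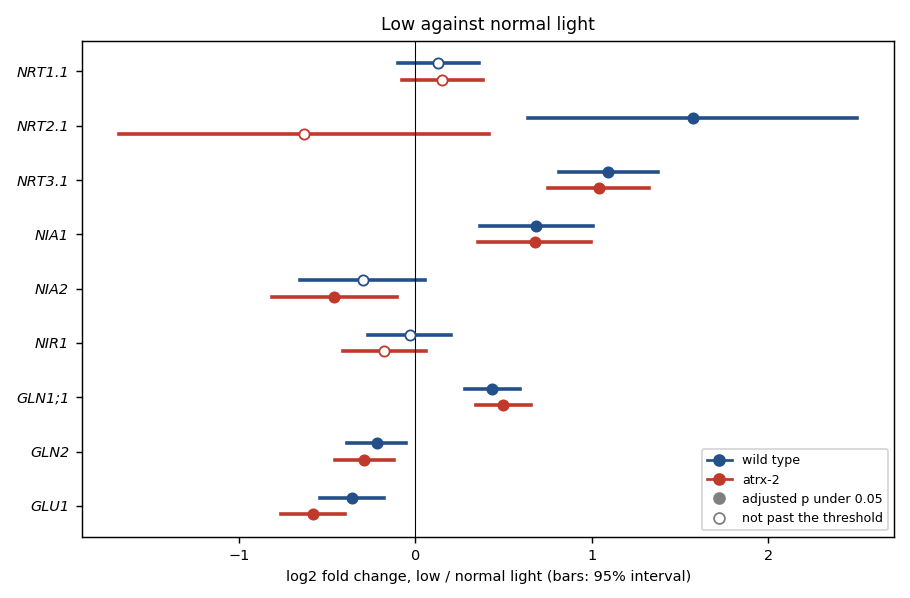
Points are log2 fold changes of low over normal light for the 9 tested genes in wild type and atrx-2, bars their 95% intervals, and filled points passed an adjusted p of 0.05. NRT3.1, NIA1 and GLN1;1 lie to the right and GLN2 and GLU1 to the left in both genotypes, while NRT2.1 lies at 1.57 in wild type and -0.63 in atrx-2.

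NRT3.1, the partner protein that the NRT2 transporters need at the plasma membrane, showed the clearest rise among the transport genes. It measured 8.71, 9.02 and 8.73 CPM in the wild-type normal-light libraries and 21.3, 18.4 and 16.6 CPM under low light. In atrx-2 the values were 8.84, 6.01 and 7.09 CPM and then 16.4, 15.3 and 13.5 CPM. Every low-light library lay above every normal-light library. The rise was 2.14-fold in wild type (log2 1.09 ± 0.13 SE, adjusted p = 1.8e-05) and 2.06-fold in atrx-2 (log2 1.04 ± 0.13 SE, adjusted p = 3.69e-05), and it passed the threshold in all 20 alternatives in each genotype.

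NRT2.1, the main high-affinity transporter of the root, was counted only a few times per library. Wild type had 3, 12 and 18 counts under normal light and 40, 18 and 13 under low light, or 0.15, 0.67 and 0.70 CPM against 2.24, 1.19 and 1.103 CPM. The low-light values all lay above the normal-light values, and replicate 1 was both the lowest normal-light library and the highest low-light library. The rise was 2.97-fold (log2 1.57 ± 0.44 SE, adjusted p = 0.0123), but without the wild-type low-light replicate 1 the log2 change was 1.15 (adjusted p = 0.0943). In atrx-2 the counts were 9, 17 and 17 under normal light and 10, 6 and 9 under low light, with overlapping CPM values of 0.46, 0.88 and 0.85 against 0.57, 0.40 and 0.43 (log2 -0.63 ± 0.49 SE, adjusted p = 0.356). Some root markers were far more abundant in the same libraries. The root endoplasmic reticulum body gene PYK10 had group means of 1953 to 2190 CPM and the Casparian strip gene CASP1 22.3 to 27.8 CPM. Others were about as low as NRT2.1. The root marker PLT2 averaged 1.49 CPM in wild type under low light, where NRT2.1 averaged 1.51 CPM.

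NRT2.2, the linked copy, had 0 counts in all 12 libraries. At a limit of 3 counts this allows up to 0.116 to 0.254 CPM in a single library and 0.0136 CPM over all 12 together, for counting error only. NRT1.1, the dual-affinity transporter, stayed between 159 and 218 CPM over the 12 libraries. Its log2 change under low light was 0.13 ± 0.11 SE in wild type (adjusted p = 0.374; 95% interval -0.10 to 0.36) and 0.15 ± 0.11 SE in atrx-2 (adjusted p = 0.307; -0.08 to 0.38). The wild-type low-light replicate 3, at 159 CPM against 216 and 218 CPM, decided the first value: without it the log2 change was 0.27 (adjusted p = 0.0327).

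The reductases did not move together. NIA1, one of the nitrate reductase genes, measured 239, 361 and 265 CPM under normal light and 451, 537 and 403 CPM under low light in wild type. In atrx-2 it measured 375, 283 and 284 CPM and then 519, 475 and 513 CPM. The low-light libraries lay above the normal-light libraries in both genotypes, by 1.61-fold (log2 0.69 ± 0.15 SE, adjusted p = 0.00265) and 1.599-fold (log2 0.68 ± 0.15 SE, adjusted p = 0.00293), and both rises passed in all 20 alternatives.

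NIA2, which provides most of the nitrate reductase activity of the plant, went the other way or showed no call. It measured 1039, 1542 and 1003 CPM under normal light and 937, 1097 and 879 CPM under low light in wild type, where the groups overlapped (log2 -0.30 ± 0.17 SE, adjusted p = 0.18). In atrx-2 it measured 1530, 1017 and 1073 CPM and then 863, 889 and 879 CPM, without overlap (log2 -0.46 ± 0.17 SE, adjusted p = 0.0447). That adjusted p lay near the threshold. Without the atrx-2 normal-light replicate 1 the log2 change was -0.25 (adjusted p = 0.234). At changes of -0.48 to -0.46, close to the full value, it also missed the threshold without the wild-type low-light replicate 1 (adjusted p = 0.0562), without each of the atrx-2 low-light replicates 1, 2 and 3 (adjusted p = 0.0927, 0.0857 and 0.0999) and, at -0.47, with DESeq2 (adjusted p = 0.0873). The interaction of NIA2 with genotype was -0.16 ± 0.23 SE (adjusted p = 0.978), so the call in only one genotype is no evidence that they differ.

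The balance of the 2 reductase genes shifted more evenly than either gene alone. Per length, NIA2 stood above NIA1 by a factor of 4.20, 4.13 and 3.66 in the wild-type normal-light libraries and 2.01, 1.97 and 2.11 under low light. In atrx-2 the factors were 3.94, 3.47 and 3.65 and then 1.61, 1.81 and 1.66. No low-light library reached the range of the normal-light libraries, and under low light the atrx-2 libraries lay below the wild-type libraries, whereas under normal light they overlapped. NIA1 made up 20.1% ± 1.23 of the summed transcripts for wild type and 21.4% ± 1.07 for atrx-2 at normal light, and 33.0% ± 0.75 and 37.2% ± 1.42 under low light (SD, n = 3 each). The sum itself was 506 ± 124, 519 ± 114, 492 ± 62.0 and 473 ± 5.02 CPM per kb, in the order wild type and atrx-2 at normal light, then at low light, with ranges that overlapped. These ratios were described and not tested.

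**Figure D3:**
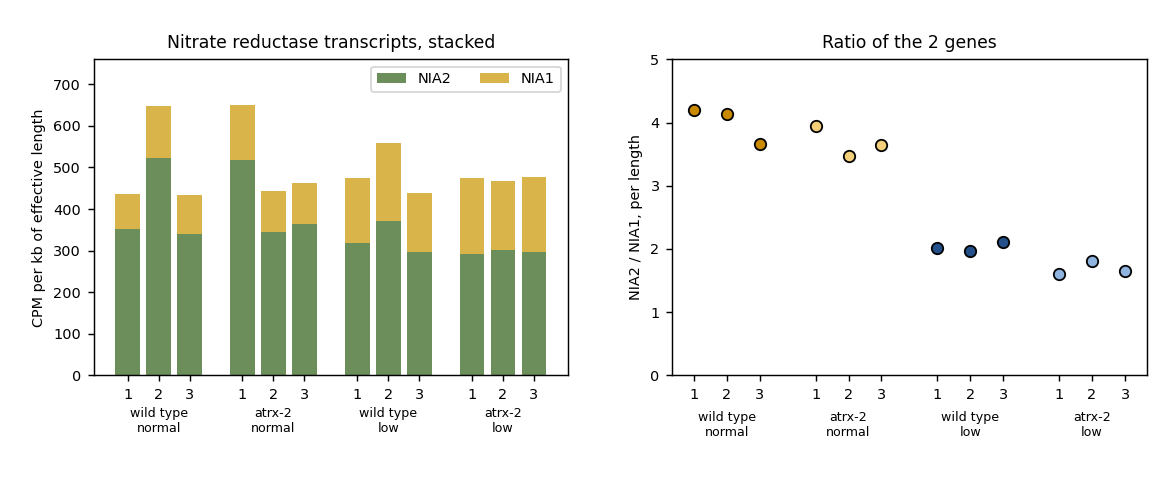
On the left, NIA2 and NIA1 are stacked for each library in CPM per kb of effective length; on the right, points are the NIA2 to NIA1 ratio per length of each library, with replicate numbers below. The stacks are highest in the wild-type replicate 2 and the atrx-2 replicate 1 under normal light, at 649 and 650 CPM per kb, whereas the ratio falls from 3.47 to 4.20 under normal light to 1.61 to 2.11 under low light.

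In 3 of the 4 groups the same library was the highest for NIA1, NIA2 and NIR1. Under normal light this was the wild-type replicate 2, at 361, 1542 and 318 CPM, and the atrx-2 replicate 1, at 375, 1530 and 308 CPM. Under low light it was the wild-type replicate 2, at 537, 1097 and 306 CPM, whereas in atrx-2 a different library was the highest for each gene. The pattern was not particular to the reductases. The same wild-type libraries were also the highest for NRT1.1, GLN2 and GLU1 at both light levels, and for NRT3.1 under normal light. The same atrx-2 library was also the highest for NRT3.1, GLN1;1 and GLN2. How many of all genes shared the pattern was not counted. The coefficient of variation of NIA2 was 25.2% and 23.3% in the normal-light groups and 11.6% and 1.49% in the low-light groups of wild type and atrx-2. NIR1, the nitrite reductase of plastids, ranged from 239 to 318 CPM over the 12 libraries. It was not called for light in wild type (log2 -0.03 ± 0.11 SE, adjusted p = 0.858; 95% interval -0.27 to 0.20) or in atrx-2 (log2 -0.18 ± 0.11 SE, adjusted p = 0.241; -0.41 to 0.06).

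GLN1;1, a cytosolic glutamine synthetase, rose under low light. It measured 74.2, 71.2 and 72.5 CPM and then 106, 99.97 and 88.6 CPM in wild type, and 67.4, 63.2 and 65.1 CPM and then 91.8, 92.4 and 92.5 CPM in atrx-2. The light levels did not overlap in either genotype. The rise was 1.35-fold (log2 0.44 ± 0.07 SE, adjusted p = 0.000341) and 1.41-fold (log2 0.50 ± 0.07 SE, adjusted p = 0.000108). On log2(TPM + 1) values the wild-type rise was 0.20 and not called (adjusted p = 0.194), on a scale where the median of all genes stood at -0.18.

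GLN2, the plastid glutamine synthetase, was lower under low light. It measured 1724, 1836 and 1614 CPM and then 1495, 1506 and 1441 CPM in wild type, and 1785, 1567 and 1538 CPM and then 1357, 1372 and 1270 CPM in atrx-2. The groups did not overlap, and the fall was small: log2 -0.22 ± 0.08 SE in wild type (adjusted p = 0.0404) and -0.29 ± 0.08 SE in atrx-2 (adjusted p = 0.0101). The wild-type call was lost in 8 of 20 alternatives: without the low-count filter (adjusted p = 0.0505), with only the 6 libraries compared (0.0587), without wild-type normal-light replicates 1 and 2 (0.0878 and 0.132), without each wild-type low-light replicate (0.0786, 0.0745 and 0.114) and without the atrx-2 low-light replicate 2 (0.0545). The atrx-2 call was lost without the atrx-2 normal-light replicate 1 (adjusted p = 0.0522).

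GLU1, the ferredoxin-dependent glutamate synthase of leaves, fell by more. It measured 1353, 1466 and 1243 CPM and then 960.4, 1142 and 1063 CPM in wild type, and 1330, 1474 and 1417 CPM and then 916, 989 and 917 CPM in atrx-2. The light levels did not overlap. The log2 change was -0.36 ± 0.08 SE for wild type (adjusted p = 0.00441) and -0.58 ± 0.08 SE in atrx-2 (adjusted p = 0.000109), past the threshold in all 20 alternatives, and the difference between the genotypes was -0.22 ± 0.12 SE (interaction, adjusted p = 0.978). Per length, GLN2 exceeded GLN1;1 by a factor of 18.9 ± 1.45 and 19.9 ± 1.15 under normal light and 12.1 ± 0.87 and 11.5 ± 0.50 under low light in wild type and atrx-2 (SD, n = 3 each). Among all glutamine synthetase transcripts, however, GLN2 kept a share between 63.1% and 67.0% in every library.

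Setting atrx-2 against wild type asks whether loss of ATRX alters the pathway. None of the 9 tested genes was called under normal light (background 14 genes, 0.0674%), under low light (15 genes, 0.0722%) or averaged over both (64 genes, 0.308%). At an unadjusted p under 0.05 there were 1791, 1359 and 2113 genes in the whole table, and DESeq2 also called 0 of the 9 in each. The median log2 of the 9 genes was -0.01, -0.15 and -0.09, beside medians of 0.00 over all genes.

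**Figure D4:**
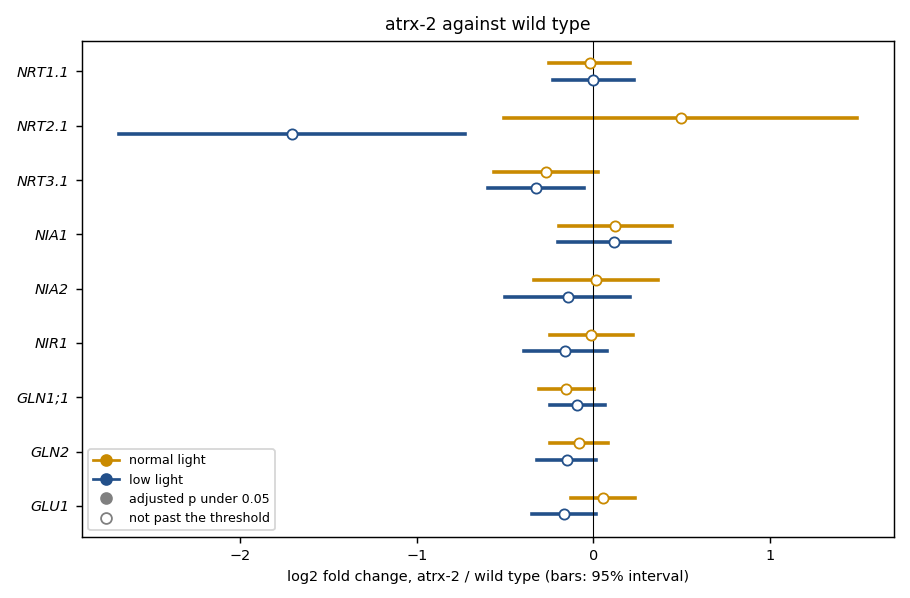
Points are log2 fold changes of atrx-2 over wild type for the 9 tested genes under normal and low light, with bars for 95% intervals; all points are open because none passed an adjusted p of 0.05. NRT2.1 has the widest intervals, around 0.49 under normal light and -1.71 under low light.

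NRT2.1 had the largest difference between the genotypes among the 9 genes. Under low light it measured 2.24, 1.19 and 1.103 CPM in wild type and 0.57, 0.40 and 0.43 CPM in atrx-2, without overlap (3.27-fold lower, log2 -1.71 ± 0.46 SE, unadjusted p = 0.00213), but with an adjusted p of 0.381 it did not pass. Under normal light the libraries overlapped (log2 0.49 ± 0.47 SE, adjusted p = 0.789). NRT3.1 was lower in atrx-2 at both light levels without passing, at log2 -0.27 ± 0.14 SE (adjusted p = 0.602) and -0.32 ± 0.13 SE (adjusted p = 0.661), and averaged -0.30 ± 0.09 SE (adjusted p = 0.276; 0.0872 to 0.583 over 19 alternatives). Under low light its atrx-2 libraries, at 13.5 to 16.4 CPM, lay below the wild-type libraries, at 16.6 to 21.3 CPM.

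The enzymes differed less between the genotypes. GLN1;1 was lower in all 3 atrx-2 normal-light libraries than in any wild-type one, at 63.2 to 67.4 against 71.2 to 74.2 CPM (log2 -0.15 ± 0.07 SE, adjusted p = 0.578), and overlapped under low light. GLN2 did not overlap under low light, at 1270 to 1372 CPM in atrx-2 against 1441 to 1506 CPM (log2 -0.15 ± 0.08 SE, adjusted p = 0.806). Of the 9 tested genes, 1 was without overlap between the genotypes under normal light and 3 under low light. The share of all genes without overlap was not counted, so a lack of overlap is description only. For NIA1 the difference was 0.12 at both light levels, with 95% intervals of -0.19 to 0.44 and -0.20 to 0.43. For NIA2 the intervals were -0.34 to 0.37 and -0.50 to 0.21, and for GLU1 -0.13 to 0.24 and -0.35 to 0.02. NRT1.1 was bounded most closely of the transporters, at -0.25 to 0.21 at normal and -0.23 to 0.23 at low light. ATRX itself fell by 41.3-fold and 75.9-fold in the same fits (adjusted p = 3.1e-11 and 1.85e-11).

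The interaction term, which asks whether the light response differs between the genotypes, called 0 of the 9 genes and 1 of 20783 overall (0.00481%); 915 genes had an unadjusted p under 0.05, and DESeq2 called 3 genes and none of the 9. NRT2.1 had the largest estimate, -2.20 ± 0.66 SE, with an unadjusted p of 0.00459 and an adjusted p of 0.978. The other 8 estimates lay between -0.22 (GLU1) and 0.06 (GLN1;1). The genotype and light contrasts share libraries, so their values for a gene are not independent of one another.

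The rest of the pathway gives the setting for the light response. Among 14 tested other nitrate transporters and channels, 5 rose and 4 fell in wild type and 6 rose and 4 fell in atrx-2, where 34.2% and 33.1% of all tested genes were called. NRT1.3, of the same family as NRT1.1, measured 116, 117 and 91.0 CPM under normal light and 25.9, 29.9 and 24.8 CPM under low light in wild type (log2 -2.004 ± 0.15 SE, adjusted p = 2.58e-07), and fell by 2.12 in atrx-2. NRT1.4, which stores nitrate in the petiole, fell by 1.28 and 1.34, and the vacuolar CLC family gene CLCB fell by 1.05 and 1.13. NRT1.8, which removes nitrate from the xylem, rose from 22 to 83 counts over the wild-type groups (log2 2.41 ± 0.56 SE, adjusted p = 0.00427) and by 1.47 in atrx-2. NRT2.3, of the high-affinity family, had 4 counts in the atrx-2 normal-light libraries and 65 under low light (adjusted p = 0.000247), at most 1.48 CPM. In wild type its counts went in the same direction, from 12 under normal light to 43 under low light. The list held 19 genes, of which NRT3.2 was not analysed here and 4 did not pass the count filter.

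Some genes of ammonium transport and of the later enzymes were also called for light, beside 34.2% of all tested genes in wild type and 33.1% in atrx-2. Of 5 tested ammonium transporter genes, 2 rose and 1 fell in wild type and 1 rose and 1 fell in atrx-2. AMT1;2, an uptake transporter of inner root cell layers, fell from 127, 125 and 90.7 CPM to 35.9, 35.2 and 32.1 CPM in wild type (log2 -1.73 ± 0.12 SE, adjusted p = 1.08e-07) and by 1.78 in atrx-2. AMT2;1 rose by 0.72 and 0.59, and AMT1;3 by 0.52 in wild type (0.27 in atrx-2, adjusted p = 0.0655). Of 11 other assimilation and amide genes, 4 rose and 1 fell in wild type and 5 rose and 2 fell in atrx-2. GLT1, the NADH-dependent glutamate synthase, rose by 0.69 and 0.65, opposite in sign to its ferredoxin-dependent counterpart GLU1, from 372, 433 and 399 CPM to 585, 688 and 671 CPM in wild type (adjusted p = 5.14e-05). The glutamate dehydrogenase gene GDH2 rose by 0.78 and 0.85 and GDH1 by 0.49 and 0.52. The cytosolic synthetase gene GLN1;2 fell by 0.44 and 0.58, opposite in sign to GLN1;1, and the asparagine synthetase gene ASN1 fell by 0.94 in atrx-2 (-0.37 in wild type, adjusted p = 0.343). The wild-type count of 5 was 3 with limma on TPM, and the atrx-2 count of 7 was 4 without the atrx-2 low-light replicate 2.

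Of 13 genes of reductant and molybdenum cofactor supply, 2 rose and 1 fell in wild type and 3 rose and 1 fell in atrx-2. Over all tested genes 34.2% and 33.1% were called. The changes of the called genes of this list were small, with absolute log2 values under 0.4. RFNR2, a root-type ferredoxin reductase gene, rose by 0.33 and 0.38, and the cofactor synthesis gene CNX5 fell by 0.22 and 0.27. CNX2 rose by 0.30 in wild type (0.15 in atrx-2, not called), and CNX6 and the plastid glucose-6-phosphate dehydrogenase gene G6PD3 rose by 0.24 and 0.28 in atrx-2 (0.11 and 0.18 in wild type, not called). The wild-type count of 3 was 1 with DESeq2 or with no filter, 0 without wild-type normal-light replicate 1 or any 1 wild-type low-light replicate, and 1 without wild-type normal-light replicate 3, atrx-2 normal-light replicate 2 or 3 or atrx-2 low-light replicate 1. The atrx-2 count of 4 was 2 with DESeq2, with limma on TPM or without atrx-2 normal-light replicate 1 or 3 or low-light replicate 1, and 1 without low-light replicate 3. Of 34 genes of nitrate signalling and regulation, 6 rose and 8 fell in wild type and 4 rose and 11 fell in atrx-2, against 34.2% and 33.1% of all tested genes. HY5 and HYH, transcription factors of light signalling, fell by 1.23 and 1.48 in wild type and by 1.06 and 1.498 in atrx-2. ANR1, a MADS-box factor of the root nitrate response, fell by 1.07 and 0.97, BT1 by 0.88 and 0.69 and the NIN-like factor gene NLP3 by 1.24 in atrx-2 (-0.91 in wild type, adjusted p = 0.106). No gene of these lists was called for genotype or for the interaction, although without the atrx-2 normal-light replicate 1 a count of 1 regulator was called for genotype averaged over light. In the main fit at most 0.308% of all tested genes were called in any of those contrasts.

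**Figure D5:**
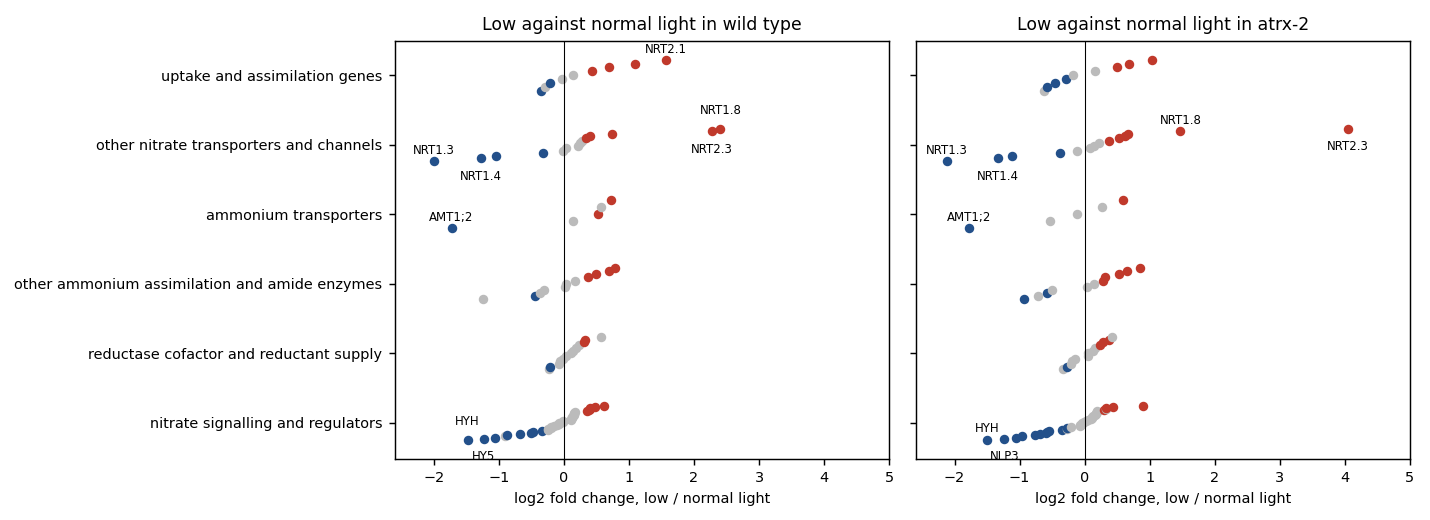
Each point is the log2 fold change of low over normal light of 1 tested gene, by list, in wild type (left) and atrx-2 (right); red points rose, blue points fell and grey points did not pass an adjusted p of 0.05, and names are given for called genes at 1.2 or more. NRT1.3, NRT1.4 and AMT1;2 lie far to the left in both panels.

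Root and shoot markers were read in the same fits. Over all tested genes 34.2% were called in wild type (16.6% higher) and 33.1% in atrx-2 (16.1% higher). Of 20 root markers, 3 rose and 0 fell in wild type under low light and 5 rose and 0 fell in atrx-2. The meristem gene PLT2 rose by 1.02 and 1.08, the aquaporin gene TIP2;3 by 0.85 and 1.15, and in atrx-2 PRP1 and PLT1 rose by 0.86 and 0.80 (0.46 and 0.36 in wild type, not called). Their median log2 change was -0.02 (wild type) and 0.17 (atrx-2). Of 15 shoot markers, 6 rose and 3 fell in wild type and 4 rose and 3 fell in atrx-2, among them the wax gene CER1, which fell by 1.63 and 1.84, AS2, which fell by 0.77 and 1.09, and the stomatal genes EPF2 and TMM, which rose by 1.00 and 0.79 in wild type and by 0.99 and 0.47 in atrx-2. The root counts of 3 and 5 were 1 and 2 with the 5 CPM filter, the atrx-2 root count was 3 without the atrx-2 normal-light replicate 3, and the wild-type shoot count of 9 was 5 without the wild-type low-light replicate 3. For genotype and for the interaction 0 markers of either organ were called. Of all tested genes only 0.0674% (normal light), 0.0722% (low light), 0.308% (averaged) and 0.00481% (interaction) were called. The part of organ shares in the changes of the nitrate genes was not tested.

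The 2 genes with a light change of at least 1 on the log2 scale were compared with the rest of the table. The measure was the root mean square difference of centred log2 CPM over 12 libraries, among 20774 other tested genes. For NRT3.1, whose own SD was 0.59, the closest were AT4G32340 (0.11), AT5G62720 (0.13) and UGT72E1 (0.15). For NRT2.1, whose SD was 0.80, the closest were MYB76 (0.46), ABCG2 (0.46) and AT1G52770 (0.47), at larger differences than for NRT3.1.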

How the data were processed

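RNA-seq of 12 whole-seedling libraries was read as single reads of 50 bases, per the labels. The authors deposited 1 table per library with estimated counts, TPM and effective lengths in bases (a column without negative values, recorded as a signal unit). They were made with kallisto 0.42 against TAIR10, per the submitters' processing notes, where DESeq2 appears as well; no source used here states the index options or strand use. The deposited estimated counts, of which 12.3% to 13.9% were not whole (tolerance 1e-06), were rounded. The deposited TPM values, scaled by the authors' program for depth and length, served only an alternative as log2(TPM + 1). The tables give 1 transcript per locus.

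Counts were fitted in edgeR 4.0.16 (R 4.3.3) with filterByExpr by group, TMM and the quasi-likelihood test over 4 groups, with 8 residual degrees of freedom and Benjamini-Hochberg adjustment over 20783 genes in each of 6 contrasts, two-sided. SE is the log2 fold change over the root of F. CPM used TMM-scaled sizes. The steps were tested on simulated data. Levels are compared between genes per kb of effective length. Gene models came from TAIR10.1 (RefSeq), whose transcript lengths equal the deposited length for 3 of the 10 genes, and Biopython 1.88 aligned the coding pairs. Upstream windows were read from that genome because no promoter table was used here; no protein sequence is shown.

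The genes and lists were chosen with earlier results of these data known. The 10 genes and ATRX are always named; from each other list, up to 4 called genes per contrast with the largest change and at least 1 CPM in the higher group; like genes are named for members called for light at a log2 change of at least 1. PYK10 and CASP1 were named after their values were seen. The 20 alternatives were RLE factors, DESeq2 1.42.0, no filter, a filter of 5 CPM in 3 libraries, no ribosomal RNA or organelle genes, a replicate block, limma 3.58.1 on log2(TPM + 1), only the 6 libraries compared, and leaving out each library. Replicates differed by more than sampling noise in each pair (chi-square 6.04 to 29.4 per gene), and every library was kept.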

Additional observations from a re-analysis of the deposited data

Results flagged for a closer look

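The check on 41 genes compared each library of a group with the mean of the group it was set against. These were the nitrate uptake and assimilation genes and the genes named from the other lists, which were named because they were called for light in these same data. A gene was flagged if all libraries lay above that mean in either genotype (or light level) and all lay below it in the other. A called interaction was also flagged. By this rule, which is stricter than estimates of opposite sign, 3 were flagged. None of them passed the interaction test over all genes. How many of all tested genes meet the rule was not counted. NRT2.3 and PRP1 were named from the light contrast in atrx-2 only, so their choice and their flag are not independent.

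NRT2.1 was the only one of the nitrate uptake and assimilation genes among them. Its light response differed between wild type and atrx-2 by -2.20 on the log2 scale (edgeR interaction, unadjusted p = 0.00459, adjusted p = 0.978), from a rise of 1.57 in wild type to -0.63 in atrx-2. It rests on 3 to 40 counts per library, and leaving out single libraries moved the estimate between -2.55 and -1.78. On the log2(TPM + 1) scale, which understates changes of low genes, it was -0.51. In 18 alternatives its adjusted p ran from 0.53 to 1.

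NRT2.3, a high-affinity transporter gene outside the 10, had genotype estimates of opposite sign at the 2 light levels, neither of them called, with a difference of 1.77 (unadjusted p = 0.0912, adjusted p = 0.978). Its counts were 12 and 4 under normal light and 43 and 65 under low light, over the wild-type and atrx-2 libraries. The root hair cell wall gene PRP1 also had estimates of opposite sign, neither called, with a difference of 0.40 (unadjusted p = 0.18, adjusted p = 0.978).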

How the results depend on the processing

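The counts of called nitrate genes, 6 for light in each genotype, ranged from 4 to 6 over the alternatives in wild type and in atrx-2, and stayed at 0 for every genotype contrast and the interaction. Of 1056 single-gene values, 988 kept direction and side of the threshold, 17 lost a call, 2 gained one and 49 changed sign. No gene that was called in the main analysis changed sign. The cause of the changes below was not tested.

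Background counts moved more. For genotype under normal light (14) they were 65 with DESeq2, 41 with no filter, 7 with the 5 CPM filter, 25 without ribosomal and organelle genes, 8 with limma on TPM, 8 with only the 6 libraries, and 5 to 19 when a library was left out. Under low light (15) they were 54, 26 and 9 with DESeq2, no filter and the 5 CPM filter, and 7 to 21 when a library was left out. Averaged (64) they were 158, 100, 41 and 41 with DESeq2, no filter, the 5 CPM filter and limma, and 31 to 84 with a library left out. The interaction (1) gave 3 with DESeq2, 0 with the 5 CPM filter and 0 to 2 with a library left out.

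With the replicate number as a block the interaction count was 0, the genotype counts were 11, 17 and 92 and no nitrate gene changed its call; NRT1.1 under low light turned to 0.0073. Nothing states whether libraries with the same number were handled together. Correlations of same-numbered deviations ran from -0.147 to 0.174 over 18 pairs, 5 of them over 0.1. With 3 libraries per group they cannot decide whether the numbers mark a shared batch.

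The TPM scale moved the median of all genes by -0.18 for light in wild type and 0.11 for genotype under low light. On it these log2 values changed sign: for genotype under normal light NRT1.1 (0.0073) and NIR1 (0.013), under low light NRT1.1 (0.15) and GLN1;1 (0.050), averaged NRT1.1 (0.079), NIA2 (0.020) and GLU1 (0.028), for light in wild type NRT1.1 (-0.11), and for the interaction NRT3.1 (0.068), NIA1 (0.10) and GLN2 (0.043). Relative to the median, NRT1.1 for light in wild type was 0.07 and GLN1;1 under low light -0.06. NIA2 for light in wild type was called on this scale (-0.50, adjusted p = 0.0365). NRT1.1 under low light, at -9.05e-05, also turned to 0.0012 with no filter, 0.0015 with the 5 CPM filter and 0.00088 with only the 6 libraries.

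With single libraries left out, the values that changed sign had these ranges. Genotype under normal light: NRT1.1 -0.065 to 0.060, NIA1 -0.024 to 0.32, NIA2 -0.19 to 0.24, NIR1 -0.11 to 0.074, GLU1 -0.0031 to 0.12. Under low light: NRT1.1 -0.14 to 0.075. Averaged: NRT1.1 -0.077 to 0.030, NIA2 -0.17 to 0.047. Light in wild type: NIR1 -0.12 to 0.070. Interaction: NRT1.1 -0.13 to 0.096, NRT3.1 -0.18 to 0.10, NIA1 -0.20 to 0.14, NIA2 -0.39 to 0.047, GLN1;1 -0.018 to 0.12, GLN2 -0.12 to 0.00096. NRT2.1 could not be tested under the 5 CPM filter, and its low counts limit every statement on it.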
